A study of Mus musculus with 6 samples.

Results

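The genes described here are ligands of the TGF-beta family with Pmepa1, a gene that TGF-beta signals switch on, and 2 SMAD proteins, in 4T1 cells, a cell line from a mammary carcinoma of a Balb/c mouse. RNA was sequenced from 3 libraries of ATM KO cells, in which the DNA damage kinase gene Atm was knocked out, and 3 libraries of vector control cells. The members were chosen by symbol: Pmepa1, Tgfb1, Tgfb2, Tgfb3, Inhba, Inhbb, Bmp4, Bmp7, Smad3 and Smad7. The files list 9 of these 10 among 13405 genes, and the expression of Bmp4 was not analysed here. The set was picked because Pmepa1, Inhbb and Bmp7 differed between ATM KO and vector control cells, so the differences of these 3 genes are given as a description, with no test. The labels do not give the method of the knockout, and they do not say whether the cells were clones or pools, or whether each library had its own culture. Any p-value therefore measures the spread among libraries only, and that spread may be technical.

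Ligands of the family are made as precursors, cut by proprotein convertases and secreted as dimers, and TGF-beta itself is held in a latent complex until it is released. Each ligand assembles type I and type II receptor kinases. TGF-beta and activin receptors phosphorylate SMAD2 and SMAD3, whereas BMP receptors phosphorylate SMAD1 and SMAD5, and both routes share SMAD4. In mammary carcinoma the pathway is known for restraining growth at early stages and for driving mesenchymal change, invasion and immune suppression at later ones.

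The values are normalized counts: for each library the authors divided its read counts by 1 factor. The listed genes held 22494919 to 32341508 reads in a library. Atm mRNA did not mark the knockout, at 1923 ± 316 in ATM KO and 1703 ± 243 in vector control cells (SD, n = 3 each), and a gene-level count does not show a small deletion. Of 11 epithelial markers 9 were listed, with sums of 116363 to 158917 in ATM KO and 93818 to 121614 in vector control libraries. Krt18 led them. Of the basal keratins among them, Krt5 was at 0 in every library. Krt14 stood at 2223, 1370 and 2311 in ATM KO 1 to 3 and at 150, 684 and 654 in vector controls 1 to 3. Markers of other cells were scarce: 3 of 9 fibroblast markers were listed, with sums of 377 to 1048 in ATM KO and 176 to 671 in vector control libraries, 3 of 9 immune markers with sums of 1152 to 2667 in ATM KO and 943 to 1922 in vector control libraries, and 1 of 7 endothelial markers with 0 to 6.84 in ATM KO and 2.10 to 11.7 in vector control libraries. Their part in the results was not tested. Vector control 1 stood apart. The first principal component, with 59.4% of the variance, placed ATM KO 1 to 3 at 3.19, -41.5 and 50.7 and vector controls 1 to 3 at -86.2, 36.9 and 37.0. Vector controls 2 and 3 were close to each other, with a chi-square per gene of 15.7 against 73.0 to 323 for the other pairs within a group. They differed by more than sampling noise and were counted as separate samples. That difference cannot show whether they came from separate cultures.

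Pmepa1 was higher in all ATM KO libraries than in all vector controls, at 1.61 times the vector control mean. Inhbb, which was almost silent in vector control cells, was higher in every ATM KO library. ATM KO 3 held 261 of its 344 reads in ATM KO libraries. Bmp7 was low in every ATM KO library and high in vector controls 2 and 3, but not in vector control 1. Among the 6 other listed members, Tgfb2 was higher without overlap, while Tgfb1, Tgfb3, Inhba, Smad3 and Smad7 overlapped between the groups. Nothing is read from that 1 of 6, since 11.2% of all tested genes did not overlap. These are bulk libraries, so fewer cells with a transcript and less transcript per cell cannot be told apart.

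**Figure D1:**
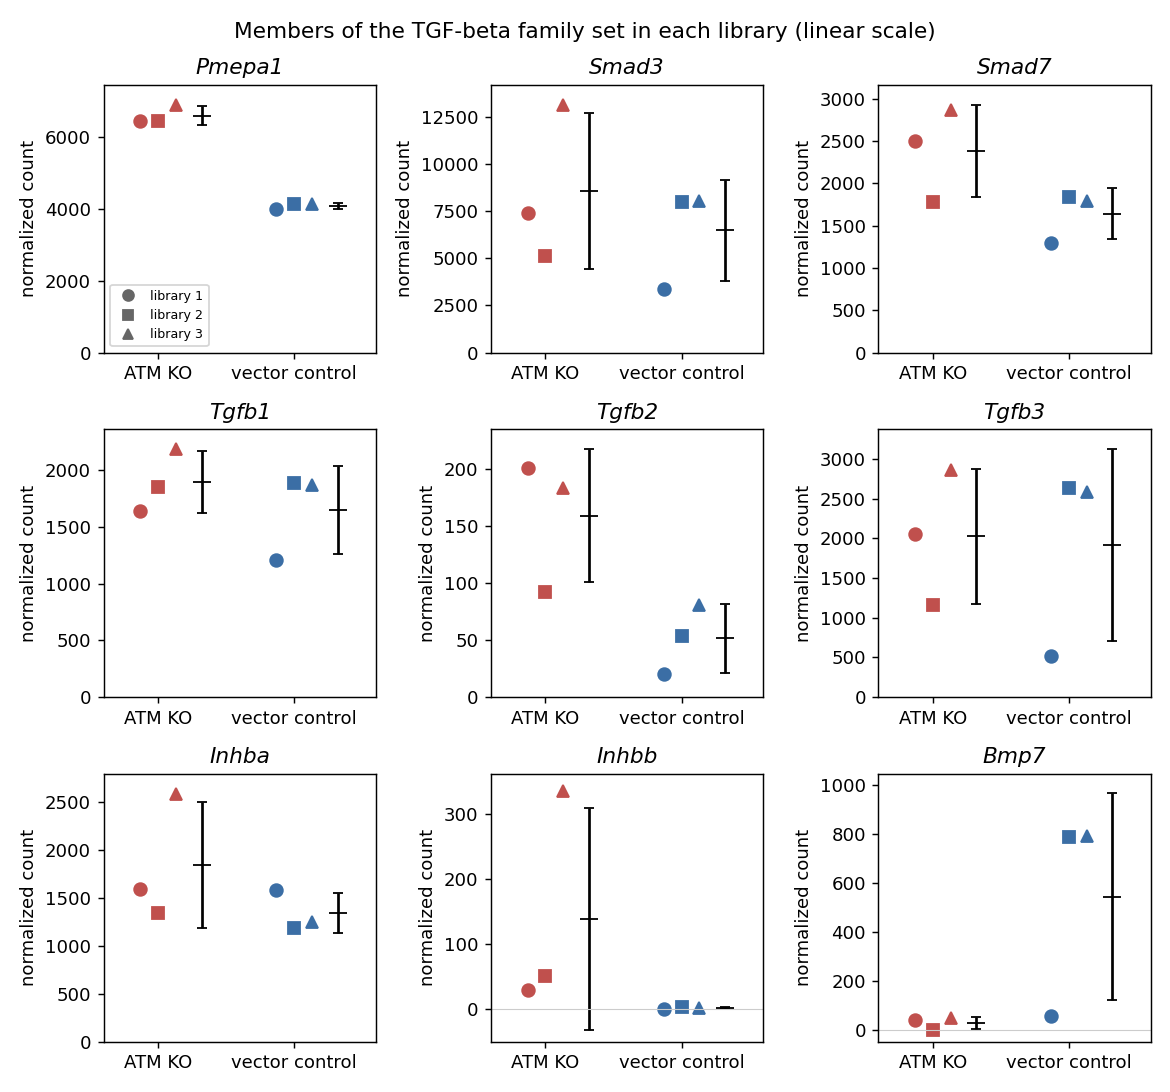
Normalized counts (vertical axes, linear, a separate scale for each gene) of the 9 listed members in ATM KO (red, left) and vector control (blue, right) libraries. The marker shape gives the library number, and the bar beside each group is the mean ± SD (n = 3). Pmepa1, Tgfb2 and Inhbb are higher in every ATM KO library, Bmp7 is lower in every one, and the other 5 overlap.

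The 3 TGF-beta isoforms bind the same receptors but come from separate genes. Tgfb1 (ENSMUSG00000002603, chromosome 7, 25687002 to 25705077, plus strand, GRCm38) stood at 1645, 1855 and 2186 in ATM KO 1 to 3 and at 1206, 1887 and 1869 in vector controls 1 to 3. The groups overlapped, since vector controls 2 and 3 lay above ATM KO 1 and 2 and only vector control 1 lay below all others. Its log2 difference (ATM KO minus vector control, taken on log2 of the value + 1) was 0.22 (SE 0.23) and shrank to 0.00 without vector control 1.

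Tgfb2 (ENSMUSG00000039239, chromosome 1, 186622792 to 186705989, minus strand) was the least abundant isoform per kb of exon in both groups. Its values were 201, 92.3 and 183 in ATM KO 1 to 3, against 20.4, 53.2 and 80.9 in vector controls 1 to 3. Every ATM KO library lay above every vector control, although ATM KO 2 was only a little above vector control 3. The means were 159 ± 58.3 in ATM KO and 51.5 ± 30.3 in vector control cells (log2 difference 1.73, SE 0.59), and the difference was 1.18 without vector control 1. Neither limma (adjusted p = 0.999) nor DESeq2 (adjusted p = 0.322) called Tgfb2. An antisense gene, Gm29491, overlaps Tgfb2. Whether counting used strand was not stated, so reads of overlapping genes cannot be told apart.

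The promoter of Tgfb2 is shown because it alone held a SMAD box among the member windows that were searched (RefSeq, GRCm38.p6). Windows of 250 bases before the start were searched for 6 of the 10 members. Those of Pmepa1, Tgfb3, Bmp7 and Smad7 were not searched, so nothing is said of them. In that of Tgfb2, at chr1:186705990-186706239 on the minus strand, capitals mark the letters CAGAC, the core of the SMAD box, which also occurs as GTCTG on the other strand.
Tgfb2: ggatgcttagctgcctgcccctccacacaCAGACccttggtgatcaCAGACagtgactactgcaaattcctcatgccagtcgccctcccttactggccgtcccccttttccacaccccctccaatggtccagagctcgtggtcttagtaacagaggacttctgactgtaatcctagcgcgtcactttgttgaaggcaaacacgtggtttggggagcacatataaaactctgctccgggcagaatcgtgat
The box occurs 2 times here and is not in the windows of Tgfb1, Inhba, Inhbb, Smad3 or Bmp4. It stands in 42.2% of all 32851 promoter windows of that length. The palindrome GTCTAGAC (0.167% of all windows), the BMP-type element GGCGCC (9.59%) and the AP-1 site TGANTCA (6.75%) were absent from the 6 member windows. Each was searched on both strands, and no match overlapped another motif.

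Tgfb3 (ENSMUSG00000021253, chromosome 12, 86056745 to 86079041, minus strand) had the widest spread of the isoforms among the vector controls. It stood at 2053, 1161 and 2859 in ATM KO 1 to 3 and at 514, 2630.3 and 2587 in vector controls 1 to 3. Vector control 1 was the lowest library by far, and vector controls 2 and 3 lay between ATM KO 1 and 3. The log2 difference was 0.32 (SE 0.70) with all libraries and turned to -0.46 without vector control 1. The protein-coding gene Ttll5 overlaps Tgfb3 on the other strand, so reads of the 2 genes may be mixed.

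Activins are dimers of the beta subunits of inhibin, beta A from Inhba and beta B from Inhbb, and signal through SMAD2 and SMAD3 as TGF-beta does. Inhba (ENSMUSG00000041324, chromosome 13, 16011851 to 16031621, plus strand) was the more abundant subunit per kb in both groups. It stood at 1587, 1344 and 2581 in ATM KO 1 to 3 and 1579, 1186 and 1248 in vector controls 1 to 3. ATM KO 3 was the highest library, and vector control 1 stood level with ATM KO 1. The means were 1838 ± 655 in ATM KO and 1338 ± 211 in vector control cells, a log2 difference of 0.41 (SE 0.28) that was 0.14 without ATM KO 3 and 0.54 without vector control 1. The antisense gene Gm48444 and the pseudogene B230303A05Rik overlap Inhba.

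Inhbb (ENSMUSG00000037035, chromosome 1, 119415465 to 119422248, minus strand) was close to silent in vector control cells. It stood at 29.9, 50.9 and 334 in ATM KO 1 to 3, against 0.973, 3.87 and 2.10 in vector controls 1 to 3, which rest on 35, 48 and 261 reads and on 1, 4 and 2 reads. Every ATM KO library lay above every vector control. ATM KO 3 held 261 of the 344 reads in ATM KO libraries. The log2 difference of 4.71 (SE 0.95) was 3.69 without ATM KO 3 and 4.39 without vector control 1, and with so few reads in vector control cells it also moved with the scale, to 3.16 with a pseudocount of 8 and 5.90 by DESeq2. Inhbb passed the filter on low values only through the ATM KO group.

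The promoters of both activin subunits are shown because the genes differ in level and in base composition. Capitals mark CG dinucleotides in the 250 bases before the start (RefSeq, GRCm38.p6), for Inhbb at chr1:119422249-119422498 on the minus strand and for Inhba at chr13:16011601-16011850 on the plus strand.
Inhbb: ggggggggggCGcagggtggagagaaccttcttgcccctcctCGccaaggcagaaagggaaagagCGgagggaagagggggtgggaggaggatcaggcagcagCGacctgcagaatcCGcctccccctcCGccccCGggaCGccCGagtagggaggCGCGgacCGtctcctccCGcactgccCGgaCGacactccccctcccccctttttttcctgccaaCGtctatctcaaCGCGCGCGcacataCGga
Inhba: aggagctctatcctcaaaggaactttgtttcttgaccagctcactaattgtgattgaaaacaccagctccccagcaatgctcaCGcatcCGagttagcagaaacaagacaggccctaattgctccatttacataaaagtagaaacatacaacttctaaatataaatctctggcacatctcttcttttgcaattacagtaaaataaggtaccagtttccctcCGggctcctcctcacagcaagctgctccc
The Inhbb window holds 21 CG dinucleotides and 68.0% G and C, and the Inhba window 3 and 43.2%. Over all 32851 windows the medians were 6.0 CG dinucleotides and 52.4% G and C. The files hold no measurement of methylation or binding, so whether these sequences bear on the counts was not tested.

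Bmp7 (ENSMUSG00000008999, chromosome 2, 172868012 to 172940321, minus strand) encodes a bone morphogenetic protein, the only BMP ligand among the listed members. It stood at 40.2, 2.12 and 48.6 in ATM KO 1 to 3 and at 57.4, 786 and 789 in vector controls 1 to 3. All ATM KO libraries lay below all vector controls, but vector control 1 was close to ATM KO 1 and 3 and far from the other controls. The mean of vector controls 2 and 3 was 13.7 times the value of vector control 1, a gap within 1 group. Group means were 30.3 ± 24.8 in ATM KO and 544 ± 422 in vector control cells (log2 difference -4.16, SE 1.44), and the difference depended on single libraries. It was -2.87 without ATM KO 2, which rests on 2 reads, -3.53 without vector control 2 or 3, and -5.41 without vector control 1. ATM KO 1 and 3 rest on 47 and 38 reads.

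Levels of different ligands were compared per kb of annotated exon. In ATM KO cells Tgfb3 averaged 598 ± 251 normalized counts per kb, Tgfb1 376 ± 54.1 and Inhba 288 ± 103, followed by Inhbb at 32.5 ± 39.9, Tgfb2 at 27.4 ± 10.1 and Bmp7 at 7.54 ± 6.17. In vector control cells the order was Tgfb3 at 565 ± 358, Tgfb1 at 328 ± 77.0, Inhba at 209 ± 33.1, Bmp7 at 135 ± 105, Tgfb2 at 8.90 ± 5.23 and Inhbb at 0.544 ± 0.343. Tgfb3, Tgfb1 and Inhba kept the first 3 places by mean in both groups, and neighbours among them overlapped between libraries. In ATM KO cells Inhbb overlapped with both Tgfb2 and Bmp7: it ranged from 7.04 per kb in ATM KO 1 to 78.5 in ATM KO 3, and lay below Tgfb2 in ATM KO 1 and 2 and below Bmp7 in ATM KO 1. Its place by mean above Tgfb2 rests on ATM KO 3. In vector control cells Bmp7 and Inhba overlapped, and Bmp7 lay just above Tgfb2, at 14.3 in vector control 1 against at most 14.0.

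**Figure D2:**
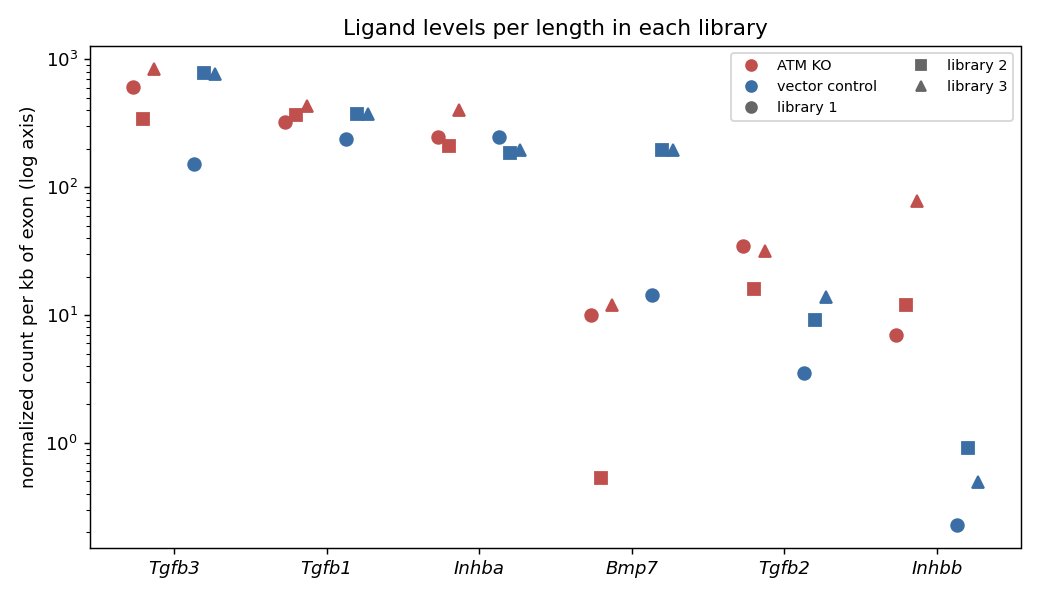
Normalized counts per kb of exon (log axis) of the 6 listed ligand genes in each library, ATM KO (red) left of vector control (blue), with marker shapes for library numbers. Tgfb3, Tgfb1 and Inhba have the highest means in both groups, but Bmp7 lies slightly above Inhba in vector controls 2 and 3. Inhbb and Bmp7 overlap in ATM KO cells, and Inhbb lies below Bmp7 in every vector control.

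SMAD3 carries TGF-beta and activin signals to the nucleus. Smad3 (ENSMUSG00000032402, chromosome 9, 63646767 to 63757994, minus strand) had the highest mean per kb of the members, at 1544 ± 744 in ATM KO and 1169 ± 482 in vector control cells. Pmepa1 lay above it per kb in ATM KO 2 (1310 against 927) and in vector control 1 (814 against 612). In normalized counts Smad3 stood at 7399.6, 5139 and 13134 in ATM KO 1 to 3 and 3392, 7989.5 and 8056 in vector controls 1 to 3. The groups overlapped, with ATM KO 3 highest and vector control 1 lowest of the 6 libraries. The log2 difference was 0.40 (SE 0.47) and turned to -0.02 without vector control 1.

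SMAD7 is induced by TGF-beta and BMP signals and blocks the receptors in a feedback loop. Smad7 (ENSMUSG00000025880, chromosome 18, 75367529 to 75395935, plus strand) stood at 2495, 1785 and 2862 in ATM KO 1 to 3 and 1293, 1837 and 1793 in vector controls 1 to 3. ATM KO 1 and 3 lay above all controls, and ATM KO 2 lay between vector controls 1 and 3. The log2 difference of 0.53 (SE 0.24) was 0.36 without vector control 1 and 0.38 without ATM KO 3.

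PMEPA1 is a membrane protein induced by TGF-beta that binds SMAD2 and SMAD3 and NEDD4-type ubiquitin ligases and dampens the signal. Pmepa1 (ENSMUSG00000038400, chromosome 2, 173224458 to 173276533, minus strand) stood at 6460.2, 6438 and 6903 in ATM KO 1 to 3, against 3998, 4153 and 4128 in vector controls 1 to 3. The libraries of each group were tight and the groups lay far apart, and vector control 1 did not stand out. The means were 6600.4 ± 262 in ATM KO and 4093 ± 83.0 in vector control cells. The log2 difference of 0.69 (SE 0.12) was 0.67 without vector control 1 and 0.66 without ATM KO 3.

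**Figure D3:**
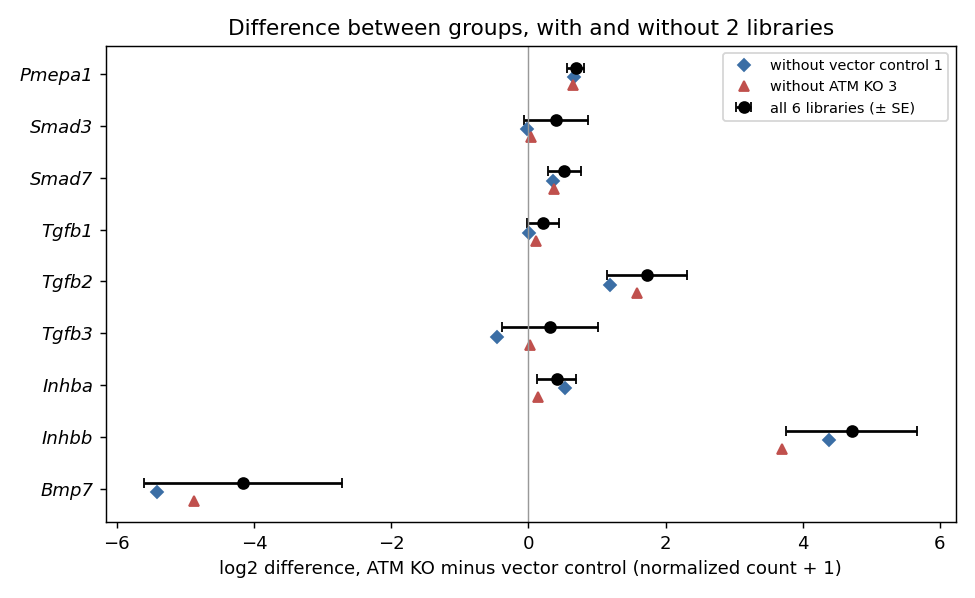
Log2 difference (horizontal axis, ATM KO minus vector control, log2 of normalized count + 1) of the 9 listed members with all 6 libraries (black, ± SE), without vector control 1 (blue diamonds) and without ATM KO 3 (red triangles). Pmepa1 hardly moves, Smad3 and Tgfb3 turn sign without vector control 1, and Inhbb and Bmp7 keep their direction.

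The libraries ranked alike across the members. Vector control 1 was the lowest vector control for 8 of the 9 members (48.8% of all tested genes), Inhba being the exception. ATM KO 3 was the highest ATM KO library for 8 members (41.0% of tested genes), all but Tgfb2, and ATM KO 2 the lowest for 7 (40.6%), all but Tgfb1 and Inhbb. These are the libraries at the ends of the first principal component, and the part of that axis in the differences was not tested.

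By limma on the log2 scale, 0 of the 9 members and 0 of 12149 tested genes (0.0%) passed an adjusted p of 0.05, and edgeR on the recovered reads called 0 as well (0.0%). At an unadjusted p under 0.05 limma had 4 members and 505 genes (4.16%). DESeq2 on the same reads called 84 genes (0.691%), among them 3 members, the same Pmepa1, Inhbb and Bmp7 for which the set was picked. Leaving out ATM KO 1, vector control 2 or vector control 3 in turn left 1 member called by DESeq2, Inhbb. The groups did not overlap for 4 members, 3 of them higher in ATM KO cells (5.70% of tested genes were) and 1 lower (5.48%). Nothing is read from these counts, since the contrast itself chose the members. Without vector control 1 the count of members without overlap was 5, where 41.4% of all tested genes had none.

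Genes whose profile was most like each of the 3 picked members were found by the root-mean-square difference between log2 values centred on each gene's mean, over 6 libraries and 10846 coding genes. For Pmepa1 these were Rsl1 (0.09), Plin2 (0.10), which encodes a lipid droplet coat protein, and Tapbp (0.10), which encodes the peptide-loading protein tapasin. Plin2 stood at 4899.7, 4307 and 5372.5 in ATM KO 1 to 3, against 2565, 2879 and 2990.2 in vector controls 1 to 3. For Inhbb they were Sulf2 (0.85), Akna (0.92) and Wisp2 (0.93). Like Inhbb, these were highest in ATM KO 3, where Sulf2, which trims sulfate from heparan chains outside the cell, had a value of 1424. It was at 152 and 93.4 in ATM KO 1 and 2 and at 21.4, 21.3 and 27.3 in vector controls 1 to 3. For Bmp7 they were Zfp667 (0.62), Catsperd (1.11) and Hcn2 (1.13). Catsperd, which encodes a subunit of the sperm calcium channel, stood at 4.28, 3.18 and 10.2 in ATM KO 1 to 3. In vector controls 1 to 3 it stood at 7.78, 282 and 268, low in vector control 1 as Bmp7 was. All these genes were chosen for likeness over the same 6 libraries, so shared patterns follow from that choice.

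Bmp7 and Pmepa1 are neighbours on chromosome 2, on the same strand and 284 kb apart, and they differed between the groups in opposite directions. Within 500 kb either side of the pair, 11 other genes were tested, and the groups did not overlap for 2 of them (as for 11.2% of all tested genes, so nothing is read from this count). They are Zbp1 and Rab22a, which were named after their values were seen, as was Rae1. Zbp1, a sensor of Z-form nucleic acids that lies 5.53 kb beyond the 3′ end of Pmepa1 on the same strand, stood at 38.5, 14.9 and 43.5 in ATM KO 1 to 3 and at 0, 10.6 and 9.46 in vector controls 1 to 3. Its log2 difference was 2.61 (SE 1.06), and 1.46 without vector control 1. Zbp1 lies between the pair. The other listed genes between them, Spo11, Rae1 and Rbm38, overlapped between the groups. Rae1, an mRNA export factor, stood at 2277, 3415 and 1559 in ATM KO 1 to 3 and 3818, 2003 and 1911 in vector controls 1 to 3.

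The other genes of the pathway were grouped by role in 8 lists of 132 genes, of which 78 were listed and 75 tested; a few stand in more than 1 list. Where a gene is called the highest of its list, this is by normalized count, not per kb. Limma called 0 of the 75 (0.0% of all tested genes), and 8 had an unadjusted p under 0.05 (4.16% of all tested genes did). By edgeR 0 were called (0.0%), and by DESeq2 1, Tgfbr3 (0.691% of all tested genes were). Every ATM KO library lay above every vector control for 13 of them (17.3%, against 5.70% of all tested genes) and below for 2 (2.67%, against 5.48%). Without vector control 1 these were 17 (22.7%, against 19.6%) and 13 (17.3%, against 21.8%). The median log2 difference of the 75 was 0.13, against -0.01 over all tested genes, and 0.07 without vector control 1.

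**Figure D4:**
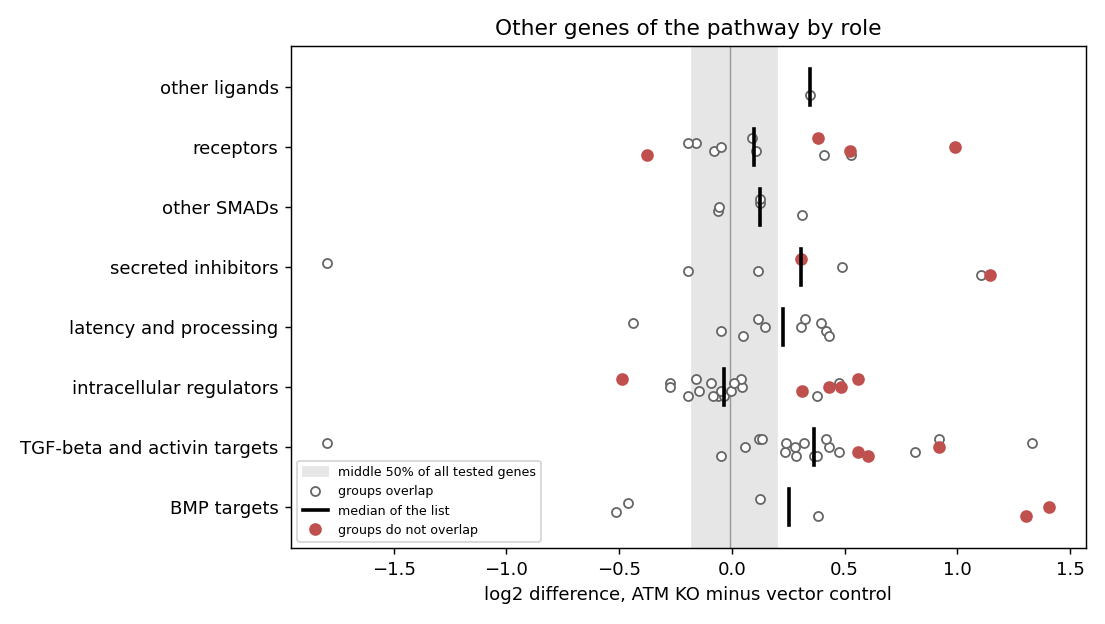
Log2 difference (horizontal axis, ATM KO minus vector control) of each tested gene of the 8 pathway lists, with filled circles where the groups do not overlap, open circles where they do, and black bars for list medians. The grey band is the middle 50% of all tested genes. The TGF-beta and activin targets lie mostly right of 0, with a median of 0.37, and the intracellular regulators are centred near 0.

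Among other ligands 1 of 26 genes was tested, Gdf11, at 608, 1197 and 399 in ATM KO 1 to 3 and 993, 375 and 380.3 in vector controls 1 to 3. It was highest in ATM KO 2 and vector control 1, the reverse of most members. Of 12 tested receptors and co-receptors, 3 were higher without overlap (5.70% of all tested genes were) and 1 was lower (5.48%). The lower one was Acvr2a, named after its value was seen. The median of the list was 0.10, and -0.22 without vector control 1. Without that library 3 were higher (19.6% of all tested genes were) and 4 lower (21.8%) without overlap. Tgfbr3, the co-receptor betaglycan that presents TGF-beta 2, stood at 499, 341 and 582 in ATM KO 1 to 3, against 254, 215 and 230.1 in vector controls 1 to 3. This log2 difference of 0.99 (SE 0.26) had a DESeq2 adjusted p of 0.0495, just under the threshold, and limma did not call it (adjusted p = 0.999). DESeq2 did not call it without ATM KO 1, ATM KO 3, vector control 2 or vector control 3. Rgmb, a BMP co-receptor, averaged 536 ± 81.7 in ATM KO and 369 ± 25.3 in vector control cells. Eng, which encodes the co-receptor endoglin, averaged 3085 ± 318 in ATM KO and 2367 ± 237 in vector control cells. The highest receptor, Bmpr1a, overlapped, at 6567 ± 1439 in ATM KO and 6725 ± 829 in vector control cells.

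The 5 tested SMADs beside the members all overlapped, where 11.2% of all tested genes did not. Smad5, a BMP transducer, was highest at 5713 ± 1561 in ATM KO and 5163 ± 838 in vector control cells. Of 7 tested secreted or membrane inhibitors 2 were higher without overlap (28.6%, against 5.70% of all tested genes). Without vector control 1, 3 were higher (42.9%, against 19.6%) and 1 lower (14.3%, against 21.8%). Dand5, an antagonist of Nodal, averaged 52.9 ± 7.18 in ATM KO and 24.2 ± 8.76 in vector control cells. Twsg1, which modulates BMP binding, averaged 3561 ± 125 in ATM KO and 2879.8 ± 250.5 in vector control cells and was also the highest of its list. None of 10 tested latency and processing genes (0, against 11.2% of all tested genes) was free of overlap. Thbs1, an activator of latent TGF-beta, stood at 25148 ± 3923 in ATM KO and 25920.4 ± 2767 in vector control cells, and the list's median of 0.23 became -0.13 without vector control 1.

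Of 21 intracellular regulators 4 were higher (19.0%, against 5.70% of all tested genes) and 1 lower (4.76%, against 5.48%) without overlap. Their median was -0.04. Without vector control 1, 4 were higher (19.0%, against 19.6%) and 5 lower (23.8%, against 21.8%), with a median of 0.06. Those shares are near those of all tested genes, so nothing is read from them. Tgif1 and Ski, co-repressors of SMADs, had log2 differences of 0.56 (SE 0.23) and 0.48 (SE 0.22), and the other 2 higher genes, named after their values were seen, were Usp9x and Rnf111. Dab2, an adaptor of TGF-beta receptors, stood at 800, 873 and 883 in ATM KO 1 to 3, against 897, 1370 and 1377 in vector controls 1 to 3. The ubiquitin ligase gene Nedd4 was the highest, at 45755 ± 7143 in ATM KO and 45840.4 ± 14736 in vector control cells.

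TGF-beta and activin targets had 19 positive and 2 negative log2 differences among 21 tested (90.5% positive, against 48.6% of all tested genes) and a median of 0.37. Without vector control 1, 13 were positive (61.9%, against 49.9%) and the median was 0.12. The median deviation of the list from each gene's mean was 0.35, -0.17 and 0.39 in ATM KO 1 to 3 and -0.68, 0.00 and -0.03 in vector controls 1 to 3, lowest in vector control 1. In 3 targets (14.3%, against 5.70% of all tested genes) every ATM KO library lay above every vector control. Without vector control 1, 5 were higher (23.8%, against 19.6%) and 1 lower (4.76%, against 21.8%) without overlap. Pdgfb, the platelet-derived growth factor B chain, stood at 6443, 5247 and 5396 in ATM KO 1 to 3, against 2097, 3579 and 3596 in vector controls 1 to 3. Tgif1, which is also among the intracellular regulators, averaged 3415 ± 740.4 in ATM KO and 2314 ± 459 in vector control cells. The highest target, the fibronectin gene Fn1, overlapped, at 75907, 43027 and 111429 in ATM KO 1 to 3 and 26326, 87794 and 87802 in vector controls 1 to 3.

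Of 6 tested BMP targets 2 were higher without overlap (33.3%, against 5.70% of all tested genes). The median of the list was 0.25, and 0.11 without vector control 1. Id3, an inhibitor of differentiation that BMP signals induce, stood at 716, 890.3 and 1191 in ATM KO 1 to 3, against 655, 264 and 233 in vector controls 1 to 3. Its log2 difference was 1.41 (SE 0.44), and 1.87 without vector control 1. Without that library 2 targets were higher (33.3%, against 19.6% of all tested genes) and 2 lower (33.3%, against 21.8%) without overlap. With only 6 genes, nothing is read from these counts. The lower ones were Id2 (-1.03) and Id4 (-1.47), of which Id4 was named after its value was seen. Hey1, a transcriptional repressor, averaged 25.9 ± 7.67 in ATM KO and 11.1 ± 6.59 in vector control cells. The related Id2 was the highest of the list and overlapped, at 2882, 1448 and 2394 in ATM KO 1 to 3 and 1503, 4553 and 4236 in vector controls 1 to 3, so Id2 and Id3 did not follow the same order of libraries.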

How the data were processed

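The deposited signal is a normalized count per gene, a read count that the authors scaled by a library factor, as the values show: all (100%) were whole multiples of a fixed step within 0.01 reads, and the steps gave back whole reads. Per the submitters' processing notes, the tools were STAR, HTSeq, DESeq2, Trim Galore, cutadapt and SAMtools, and the builds mm9 and GRCm38, with no roles. What decided which 13405 genes are listed was not stated. Coordinates and exon lengths came from GENCODE M21 (GRCm38), which holds 13249 (98.8%) of the gene IDs, and promoter sequences from RefSeq.

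ATM KO and vector control libraries (3 each, grouped by title) were compared with limma 3.58.1 in R 4.3.3 on log2(value + 1), which understates changes of low genes, with a trended empirical Bayes fit, 2-sided, over 12149 genes with a mean of at least 10 and Benjamini-Hochberg adjustment at 0.05. The recovered reads were also fitted with DESeq2 1.42.0 and with edgeR 4.0.16 by quasi-likelihood. Named pathway genes were those of each list with the largest differences without overlap, up to 3, and the 1 with the highest mean. Genes most like Pmepa1, Inhbb and Bmp7 were the nearest 3 coding genes tested, leaving out Gm-numbered and Rik symbols. The members and lists were chosen with earlier results of these data known. One gene that the rule names is not reported here. Alternatives are in the closing section.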

Additional observations from a re-analysis of the deposited data

How the results depend on the processing

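Limma called 0 genes, 0 members and 0 pathway genes under both other pseudocounts (0.5 and 8), without a filter or with a minimum mean of 50, under CPM or TMM scaling, and without each library in turn. DESeq2 on the recovered reads called 84 genes, 3 members and 1 pathway gene. Leaving out each library in turn, chosen after seeing the data, DESeq2 called 31, 91 and 74 genes without ATM KO 1, 2 and 3 and 544, 17 and 22 without vector controls 1, 2 and 3, between 1 and 3 members (all picked on this contrast, so nothing is read from it), and between 0 and 6 pathway genes; the cause was not tested. Of these 6 fits, Tgfbr3 was called only in those without ATM KO 2 or vector control 1. Without vector control 1, also chosen after seeing the data, groups did not overlap for 5026 genes (41.4%) and 30 pathway genes. With it these were 1358 (11.2%) and 15. Groups of fewer libraries overlap less often whichever library is left out, so the counts are not compared. The log2 difference of Smad3 turned sign in 2 of 21 alternatives and that of Tgfb3 in 3, all without vector control 1 or ATM KO 3, and no other member's turned. That of Inhbb ranged from 3.16 to 6.50 over these alternatives. Deviations of libraries with the same number correlated at -0.02, -0.58 and 0.53 across genes for numbers 1 to 3. Between libraries with different numbers the correlations ran from -0.59 to 0.61. Limma with the replicate number as a block called 0 genes, 0 members and 0 pathway genes. Depth limits Inhbb in vector control cells (1, 4 and 2 reads) and Bmp7 in ATM KO 2 (2 reads).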

Other observations

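Of the listed pathway genes, 3 lay under the filter of a mean of 10 and entered no test. Bmp8b, a BMP ligand with a near-identical copy (Bmp8a), so that its counts are uncertain, was listed at 5.99, 4.24 and 21.8 normalized counts in ATM KO 1 to 3 and 1.95, 2.90 and 2.10 in vector controls 1 to 3. Nog, the gene of the BMP antagonist noggin, stood at 10.3, 15.9 and 0 in ATM KO 1 to 3 and 5.84, 0 and 0 in vector controls 1 to 3. Chrd, which encodes the BMP antagonist chordin, stood at 4.28, 1.06 and 1.28 in ATM KO 1 to 3 and 1.95, 0.967 and 1.05 in vector controls 1 to 3.

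Fst, which encodes the activin antagonist follistatin, varied more within the groups than between them, at 88.1, 84.9 and 16.6 in ATM KO 1 to 3 and 355, 26.1 and 20.0 in vector controls 1 to 3. Its relative Fstl3 stood at 6.84, 3.18 and 3.84 in ATM KO 1 to 3 and 2.92, 49.3 and 32.6 in vector controls 1 to 3, low in vector control 1 as Bmp7 was. Both were chosen after their values were seen.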
